A study of Mus musculus with 6 samples.

Results

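Gene expression in the interzone of control mouse embryos was set against that in their interdigital tissue, with 1 array for each tissue among the 6 arrays of the series. Both arrays held RNA of wild type C57BL/6 embryos at stage E14.5 of development, cut by laser-capture microdissection from frozen sections of the autopod, the hand or foot plate. The 2 samples were chosen by their titles, and the genes described are the 17603 of 19512 named genes whose probe stood well above background on both arrays. Of the remaining arrays, 1 held control growth plate, and the others held interzone, growth plate and interdigital tissue of littermates labelled Tgfbr2Prx1KO. By convention that name denotes Prx1-driven recombination of Tgfbr2, which encodes a TGF-beta receptor, in early limb mesenchyme. The title of the mutant interdigital sample spells it Tbr2Prx1KO, which was read as the same mutant. The mutant interzone and mutant interdigital arrays are set beside the control pair, with which they share no array. No treatment was given to any group, as far as the labels say. The labels' protocols give 2 control and 2 mutant embryos in all and do not tie an embryo to an array, so each array is a single amplified sample. The descriptions of 5 of the 6 samples, all but the interzone control, name irradiated human blood, while their titles, organism and tissue or cell type labels name mouse limb, and the titles were followed.

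The interzone is the band of flattened cells that forms across a cartilage condensation where a joint will be. It secretes growth factors of the BMP family, among them the product of Gdf5, and keeps cartilage differentiation away from the future joint line while cartilage forms on either side of it. The interdigital tissue is the mesenchyme of the web, which in the mouse lies in a field of retinoic acid and BMP signals and regresses by cell death as the digits separate. Both tissues come from limb bud mesenchyme, and vessels, macrophages and nerves run through the soft tissue around the skeletal elements.

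The 2 control arrays lay on the same slide. Their median processed signals were 349 units for the interzone and 466 units for the interdigital tissue, 83.1% and 88.3% of their spots were well above background, and no spot was saturated. Levels are log2 signals relative to the 75th percentile of the same array, so a level of 0 is that percentile, and differences are interzone minus interdigital. With a single array in each group there is no replicate check, no p-value was computed, and the number of arrays limits the precision. A single spot of a probe printed 10 times had a median SD of 0.124 for the log2 difference between the arrays (208 probes). Different probes of a gene disagreed far more, with a median SD of 0.78 over 7151 genes that had several measured probes. Of 1971 such genes that differed at least 2-fold at the probe used, 1078 (54.7%) had all their probes in the same direction. Other probes of a named gene are therefore given where they went the other way, and for most named genes past 2-fold. Xist, the X-inactivation RNA of female cells, had levels of 3.02 in interzone and 4.14 in interdigital tissue, and the Y-linked genes Uty, Kdm5d and Eif2s3y were not well above background on either control array, while Ddx3y was dim but above background at -5.13 and -5.42.

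Most genes differed by less than 2-fold between the tissues. Among the 17603 genes, 2634 (15.0%) were at least 2-fold higher in interzone, 2581 (14.7%) were at least 2-fold lower, and 12388 differed less. All counts of list members in the control pair below are to be read against these shares. Differences were above 0 in 9429 genes and below it in 8174. The median difference was 0.07 and the SD of all differences 1.27. Pearson's r between the levels on the 2 arrays was 0.877 across genes, which are not independent replicates. At 4-fold, 817 genes were higher and 976 lower, and at 16-fold 123 were higher and 156 lower. Dim genes differed more often than bright ones, with 40.6% past 2-fold in the dimmest of 3 equal bins, 32.1% in the middle bin and 16.2% in the brightest. The share of higher genes among those past 2-fold was 50.5%, 63.8% with the deposited ratio table and 64.8% with a stricter filter on dim probes. That table moved the median over all genes to 0.31, and list medians taken from it are to be read relative to that value. A further 322 genes stood well above background in interzone only and 635 in interdigital tissue only.

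**Figure D1:**
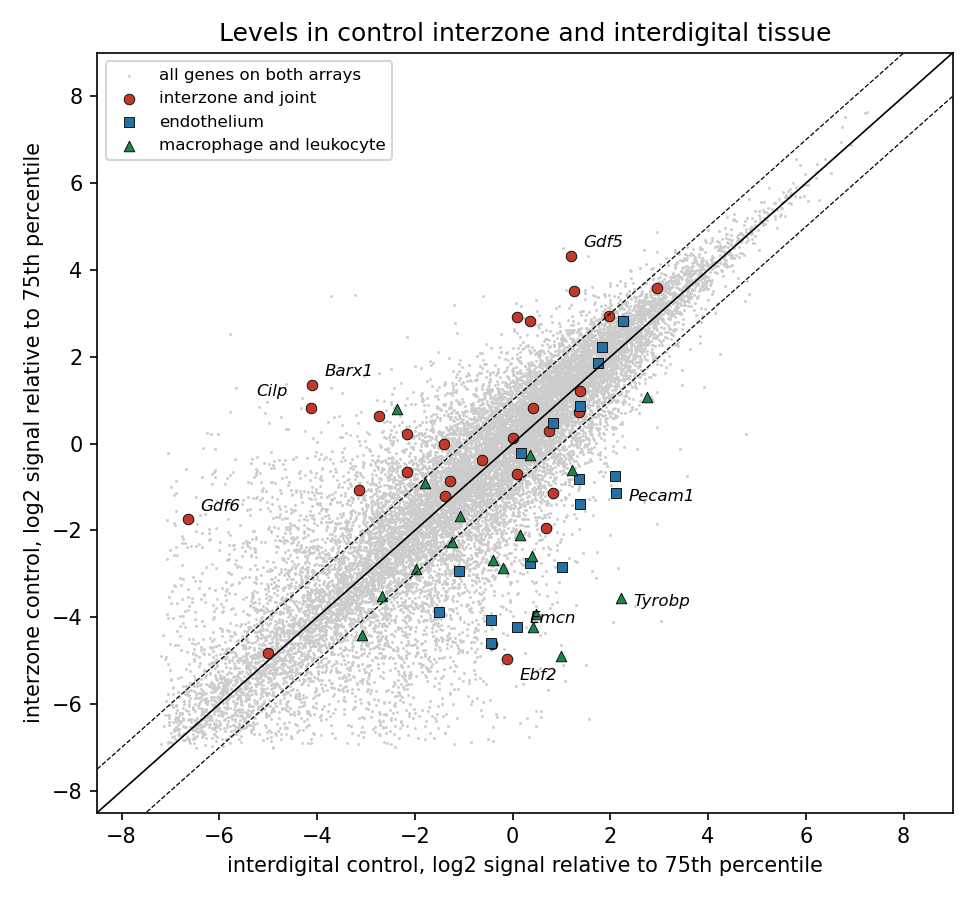
Each point is a gene measured on both control arrays, with its level in interdigital tissue on the horizontal axis and in interzone on the vertical axis, both as log2 signal relative to the array's 75th percentile; the solid line marks equal levels and the dashed lines a 2-fold difference. Gdf5 lies above the lines at 4.33 in interzone against 1.20 in interdigital tissue, and most endothelial and macrophage genes lie below them.

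Genes of the interzone and joint were more often higher than lower in interzone. Of 29 measured, 12 were at least 2-fold higher (41.4%, against 15.0% of all genes) and 4 were lower (13.8%, against 14.7%), with a list median of 0.56. Gdf5, the growth factor gene by which the interzone is recognised, had a level of 4.33 in interzone and 1.20 in interdigital tissue, 8.76-fold higher. Its level in control growth plate was 2.17, between the 2 tissues. The label of the interzone sample and its defining marker thus point the same way, and Gdf5 was also measured well above background in the web.

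Among regulators of transcription in the joint, Barx1, a homeobox gene of the joint-forming region and the developing stomach, stood furthest apart. Its level was 1.36 in interzone and -4.10 in interdigital tissue, 43.9-fold higher. Lmx1b, the dorsal limb regulator, was at 0.65 and -2.73 (10.4-fold higher), and Osr2, an odd-skipped family gene that mouse joints need together with Osr1, was at 2.83 and 0.35 (5.57-fold higher). Trps1, a GATA-type repressor active in joints and cartilage, was at 2.91 and 0.08, and its 3 probes gave differences between 2.83 and 3.96. Osr1, the relative of Osr2, differed by less than 2-fold (-0.62, with 0.44 at its other probe), and the ETS factor gene Erg, expressed in articular precursors and in endothelium, by 0.56 at the probe used and 0.53 at its other probe. The early B-cell factor genes ran the opposite way. Ebf1 had levels of -4.62 in interzone and -0.43 in interdigital tissue, with differences of -4.19 and -5.53 at its 2 probes, and Ebf2 was at -4.96 and -0.12, 28.7-fold lower. Nfatc1, a calcium-regulated factor gene of articular progenitors, was 3.90-fold lower, and its other probe gave -1.17.

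Several secreted joint products were higher in interzone, and others were close. Gdf6, the closest relative of Gdf5 in joints, was at -1.74 in interzone and -6.64 in interdigital tissue, 29.8-fold higher, although it was dim on both arrays. Cilp, a matrix protein of the intermediate zone of adult cartilage, was at 0.81 and -4.13 (30.8-fold higher). Sfrp2, a secreted Wnt modulator, was at 3.52 and 1.25 (4.80-fold higher), and the matrix protease gene Htra1 was at 0.23 and -2.16 (5.25-fold higher). Has2, the main synthase of hyaluronan in the limb, was at -1.06 and -3.14, with differences of 2.08 and 1.45 at its 2 probes. The group was not uniform. Dcx, the microtubule protein gene doublecortin, was 2.63-fold higher at the probe used and gave -1.22 at the other, and Enpp1, which makes the mineralisation inhibitor pyrophosphate, was 6.20-fold lower at the probe used and gave 0.73 at the other. Wnt4, Wnt9a and Wnt16, the canonical Wnt ligand genes of the joint, differed by -0.15, 0.12 and 0.20, and Chrd and Nog, the BMP antagonist genes chordin and noggin, by 0.41 and -0.45. Hyaluronan receptor gene Cd44 was 1.72-fold lower, with its other probes between -5.68 and 0.25. Of the 7 members past 2-fold that had other probes, 5 had all of them in the same direction.

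**Figure D2:**
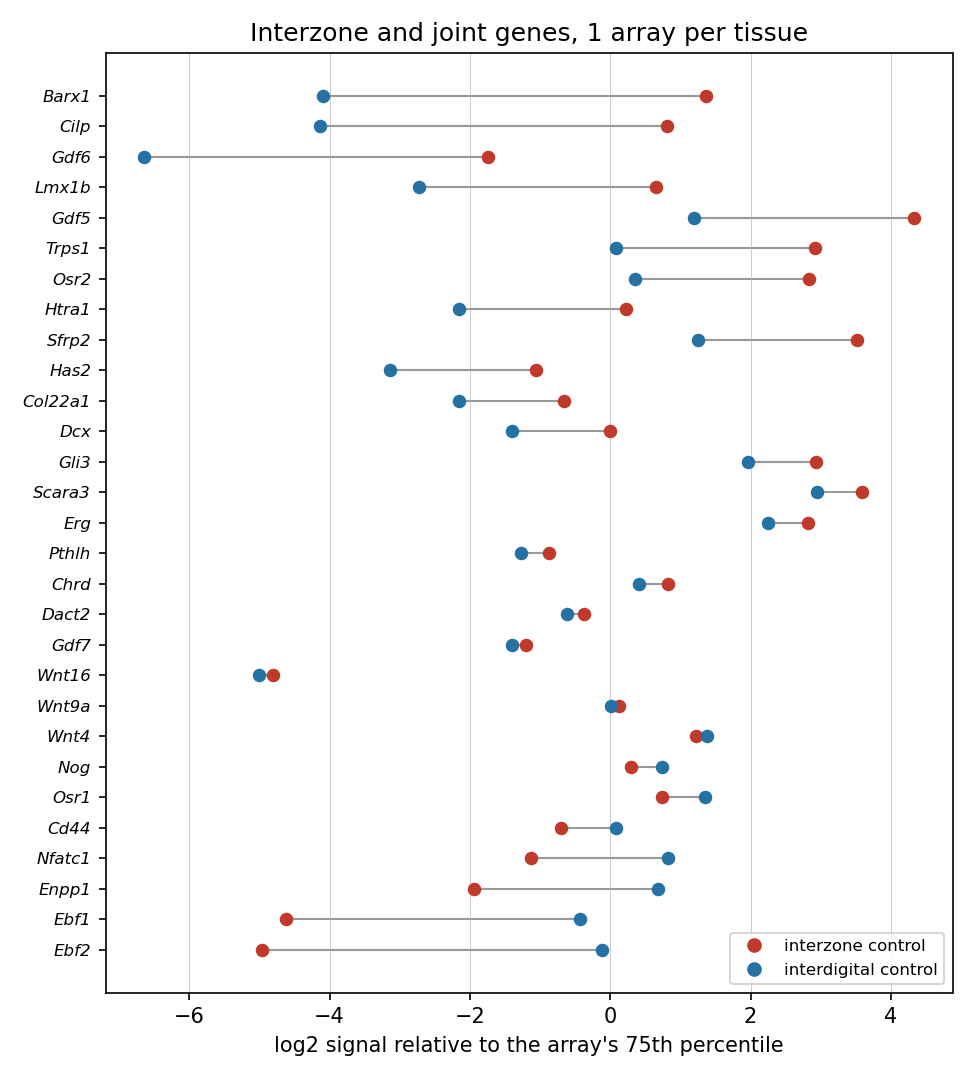
Each row is a gene of the interzone and joint list, with its level in control interzone and control interdigital tissue as log2 signal relative to the array's 75th percentile, ordered from the highest to the lowest difference. Barx1 at the top differs by 5.45, and Ebf2 at the bottom by -4.84.

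Cartilage genes were higher in the interzone sample as well. Among the 26 measured, 10 passed 2-fold on the interzone side (38.5%, against 15.0% of all genes). On the interdigital side 3 did so (11.5%, against 14.7%), 22 differences were above 0, and the median was 0.78. Of 5 members past 2-fold with other probes, 3 had all of them in the same direction. Col2a1, the main cartilage collagen gene, was bright on both arrays at 6.55 in interzone and 5.81 in interdigital tissue (1.68-fold higher), and its other probes gave 0.91 and 2.04. Acan, which encodes the large proteoglycan aggrecan, was at 2.73 and 1.69 (2.07-fold higher). Sox9, the master regulator of cartilage, was at 2.42 and 0.69, with its 3 probes between 0.42 and 3.0. Cnmd, encoding the anti-angiogenic matrix protein chondromodulin, was at 2.66 and 0.54 (4.33-fold higher), and the collagen IX gene Col9a3 was at 4.47 and 2.68 (3.44-fold higher). Chondrocyte matrix was therefore read at clear levels in both captured tissues, with the higher reading in interzone. Sox5, a partner of Sox9, was 18.1-fold higher at the probe used but gave -1.48 at its other probe. The exception with the largest difference was Epyc, the small leucine-rich proteoglycan gene epiphycan, at -4.70 in interzone and -0.84 in interdigital tissue, a difference of -3.86.

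Genes of later cartilage and of bone did not follow. None of 12 prehypertrophic and hypertrophic genes was at least 2-fold higher, against 15.0% of all genes. Lower were 2 (16.7%), near the 14.7% of all genes, and the median was -0.30, or 0.04 averaging the probes of a gene. The hedgehog ligand gene Ihh differed by -0.32 at the probe used and -3.48 at its other probe, and the hypertrophic collagen gene Col10a1 by -0.41. Alpl, the alkaline phosphatase gene of mineralising cells, was at -6.88 in interzone and -0.86 in interdigital tissue (64.8-fold lower). Panx3, a channel gene of hypertrophic cartilage and osteoblasts, was not well above background in interzone and at 0.93 in interdigital tissue, at least 248-fold lower. A bound of this kind sets the brighter array against the dimmest signal that passed the background flag on the other array, or against the gene's own signal there if that is higher. Of 13 osteoblast and perichondrium genes, 2 were higher (15.4%, against 15.0% of all genes) and 5 lower (38.5%, against 14.7%), with a median of -0.32. The osteoblast regulators Dlx5, at -0.88 in interzone and 1.66 in interdigital tissue, and Sp7, at -0.80 and 1.21, were 5.84-fold and 4.03-fold lower. Runx2, upstream of Sp7, was 3.03-fold lower with its other probes at -3.61 and -0.16, and Bglap, the osteocalcin gene, was 4.23-fold higher.

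Genes known from the interdigital web did not sit on the interdigital side as a group. Of 25 measured, 6 were at least 2-fold higher in interzone (24.0%, against 15.0% of all genes) and 5 lower (20.0%, against 14.7%), with a median of 0.25. The members on the interdigital side included Aldh1a2, the enzyme gene that makes retinoic acid in the web, at -3.56 in interzone and -2.12 in interdigital tissue (2.72-fold lower). Crabp1, the cellular retinoic acid binding protein gene, was at 3.74 and 4.80 (2.09-fold lower), Hoxd12, a digit patterning gene, at -3.44 and -1.04 (5.29-fold lower), and Dkk1, the Wnt antagonist gene, at -3.50 and -1.35 (4.45-fold lower, with -0.93 at its other probe). Tbx3, a T-box gene of the limb margins, was not well above background in interzone and at -2.58 in interdigital tissue, at least 21.6-fold lower. These readings lay toward the web as the list's name says, and the following ones did not. Msx1 and Msx2, homeobox targets of BMP signals in the web, were higher in interzone, with Msx1 at 2.35 against 0.64 in interdigital tissue (differences of 1.72 and 1.98 at its 2 probes) and Msx2 at -1.49 against -3.90 (5.33-fold higher). Lhx2, a LIM homeobox gene of the distal limb, was at 1.78 in interzone and -1.04 in interdigital tissue (7.03-fold higher). The BMP ligand genes of the web were close, with Bmp2 differing by 0.20, Bmp4 by -0.84 and Bmp7 by 0.92.

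Retinoic acid genes and cell death genes lay on both sides, with a few more past 2-fold on the interdigital side. Of 17 retinoic acid genes, 1 was at least 2-fold higher (5.88%, against 15.0% of all genes) and 4 were lower (23.5%, against 14.7%). The median was -0.16, or 0.08 with the deposited ratio table. The degrading enzyme gene Cyp26a1 was at -6.31 in interzone and -2.90 in interdigital tissue (10.6-fold lower), the receptor gene Rara was 2.18-fold lower, and the reductase gene Dhrs3 was 2.21-fold higher, with 0.67 at its other probe. Of 24 apoptosis genes, 3 were higher (12.5%) and 6 lower, and the median was -0.36, or 0.01 with the stricter filter on dim probes. The BH3-only gene Pmaip1, which encodes the p53 target Noxa, was at -5.74 in interzone and -2.33 in interdigital tissue (10.6-fold lower). Hrk, another BH3-only gene, was not well above background in interzone, at least 13.8-fold lower. Bax and Bid, which act at the mitochondrial membrane, lay on the other side, 2.62-fold and 17.4-fold higher, so the list held death genes of both directions. Bid was dim in interdigital tissue at -6.42, and its difference lay between 2.41 and 5.17 under the processing alternatives.

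Measured BMP targets, and a mixed list of Wnt antagonists and targets, were more often higher than lower in interzone. The ligands and receptors of either pathway were mostly within 2-fold. Of 28 BMP and GDF ligand, receptor and antagonist genes, 3 were higher and 2 lower (median 0.13). The 3 were Gdf5, Gdf6 and the antagonist gene Chrdl2, at 0.49 in interzone and -1.77 in interdigital tissue. Fst, which encodes the activin and BMP binding protein follistatin, was not well above background in interzone and at -0.09 in interdigital tissue, at least 121-fold lower. Of 10 BMP targets, 5 were higher and 1 lower, with a median of 0.75, or 0.31 with no filter on dim probes. They were Msx1, Msx2, the Id genes Id1 (2.12 in interzone and 0.95 in interdigital tissue, with 1.19 at its other probe) and Id4 (0.75 and -0.54, with 2.31 at its other probe), whose products block basic helix-loop-helix factors, and Atoh8 (2.79 and 0.81). Id2 differed by -0.46, with 0.26 at its other probe, and Id3 by 0.29, and Hey1, which Notch also controls, was not well above background in interzone, at least 22.3-fold lower. The lists share members, since Msx1 and Msx2 also stand among the web genes.

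Of 28 Wnt ligand and receptor genes, 2 were higher and 4 lower (median 0.08). Of 21 Wnt antagonist and target genes, 9 were higher (42.9%) and 3 lower (14.3%), with a median of 0.76, or 0.38 with no filter on dim probes. Over all members on the array, dim ones included, the median level of this list was -2.24 in interzone and -1.72 in interdigital tissue. Targets were not counted apart from antagonists, so the counts do not measure Wnt activity. Axin2, a feedback inhibitor and direct target of beta-catenin, was at -2.30 in interzone and -6.70 in interdigital tissue (21.2-fold higher). Its interdigital signal was dim, and its difference lay between 2.44 and 5.41 under the processing alternatives. Lef1, the nuclear partner of beta-catenin, was at 0.92 and -1.99, with differences of 2.91 and 4.25 at its 2 probes. The secreted antagonist Wif1 was at 2.10 and -0.24 (5.08-fold higher), and the feedback gene Nkd2 at 2.12 and 0.15, with 1.98 and 1.77 at its 2 probes. Antagonists were thus found on both sides, since Dkk1 and Frzb, a secreted Frizzled-like protein gene of cartilage, were lower in interzone, Frzb being at -3.74 in interzone and -1.70 in interdigital tissue (4.10-fold lower). All 5 members of this list past 2-fold that had other probes had them in the same direction. Among ligands, Wnt5a, of the planar polarity branch, was at 0.80 in interzone and -1.48 in interdigital tissue (4.88-fold higher). The co-receptor gene Lrp6 was at -5.36 and -2.27, 8.52-fold lower with -2.52 at its other probe, and its relative Lrp5 differed by -0.17.

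FGF genes lay on both sides. Of 23 measured, 7 were higher (30.4%, against 15.0% of all genes) and 5 lower (21.7%, against 14.7%), with a median of -0.04. Of 5 members past 2-fold with other probes, only 2 had all of them in the same direction. Fgf10, Fgf18 and the feedback genes Spry1 and Fgfrl1 were higher in interzone by 2.34-fold, 2.61-fold, 2.56-fold and 2.95-fold. Fgf7, a mesenchymal ligand for epithelial receptors, was at -0.95 in interzone and 2.01 in interdigital tissue (7.78-fold lower), and the feedback inhibitor gene Spry4 was at -6.28 and -3.73 (5.85-fold lower). At the probes used, feedback inhibitors of FGF signalling were therefore read on both sides. The receptor genes Fgfr1 and Fgfr2 differed by -0.04 and 0.41, the other probes of Fgfr1 lying between -0.26 and 0.75.

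TGF-beta and hedgehog genes lay on both sides, and the counts below stand against 15.0% higher and 14.7% lower over all genes. Among 19 components of the TGF-beta pathway, 2 lay past 2-fold on each side (median -0.07), and among its 19 targets, 2 were higher against 3 lower (median -0.17). Tgfbr2, the gene named in the mutant label, had levels of 2.42 in interzone and 2.49 in interdigital tissue. Inhba, which encodes an activin subunit, was at 0.98 and -2.64 (12.3-fold higher), and Tgfbi, a matrix protein gene induced by TGF-beta, was at 4.33 and 1.53 (6.96-fold higher). Acvrl1, an endothelial type I receptor gene, was at -5.53 and 0.20 (53.1-fold lower). Of 14 hedgehog genes, 1 was higher and 2 were lower (median 0.35, or -0.31 averaging the probes of a gene). Gli1 and Ptch1, which read out the pathway, differed by -0.85 and -0.46.

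Notch genes also lay on both sides. Of 16 measured, 2 were higher (12.5%, against 15.0% of all genes) and 4 lower (against 14.7% of all genes, median -0.24, or 0.15 with the stricter filter on dim probes), with the feedback gene Nrarp at -6.49 in interzone and -3.37 in interdigital tissue (8.66-fold lower) and the endothelial receptor gene Notch4 at -2.83 and -0.71 (4.35-fold lower). Rbpj, the DNA-binding partner of the Notch receptors, was 4.30-fold higher. Guidance genes divided between the tissues. Of 33 ephrin, semaphorin and related genes, 10 were higher (30.3%, against 15.0% of all genes) and 6 lower (18.2%, against 14.7%). The median was -0.01, and of 9 past 2-fold with other probes 5 had all of them the same way. Ephb1, an ephrin receptor gene, was at -0.31 in interzone and -2.48 in interdigital tissue (4.49-fold higher) and the Slit receptor gene Robo1 at 2.28 and 0.61 (3.18-fold higher). Netrin gene Ntn1 was at -4.35 and -1.04 (differences of -3.31 and -3.30 at its 2 probes), and the netrin receptor gene Unc5b was not well above background in interzone, at least 24.7-fold lower.

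Limb transcription factor genes were spread widely in both directions. Of 41 measured, 12 were at least 2-fold higher (29.3%, against 15.0% of all genes) and 8 lower (19.5%, against 14.7%), and the median was 0.14. Of 6 members past 2-fold with other probes, 3 had all of them in the same direction. Six2, a homeobox gene of limb tendons, was at 1.27 in interzone and -5.65 in interdigital tissue (122-fold higher). Sall1, a zinc finger gene of the distal limb, and Hand2, a posterior regulator, were 2.93-fold and 2.76-fold higher, Hand2 with 1.92 at its other probe. On the interdigital side, Nr2f1, an orphan nuclear receptor gene, was not well above background in interzone and at -1.39 in interdigital tissue, at least 49.4-fold lower. Foxd1 was at -6.55 and -2.31 (18.8-fold lower). Prrx1, the mesenchymal homeobox gene whose enhancer drives the Prx1 recombinase, was at 0.33 in interzone and 2.05 in interdigital tissue, and its 5 probes gave differences between -1.96 and -0.41. Tbx2 and Twist1 were within 2-fold, differing by -0.14 and -0.29. Of 13 posterior Hox genes, 2 were higher and 1 lower (median 0.01), and the autopod genes Hoxd13 and Hoxa13 differed by 0.54 and -0.35 at the probes used and by -0.46 and -1.81 at their other probes.

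**Figure D3:**
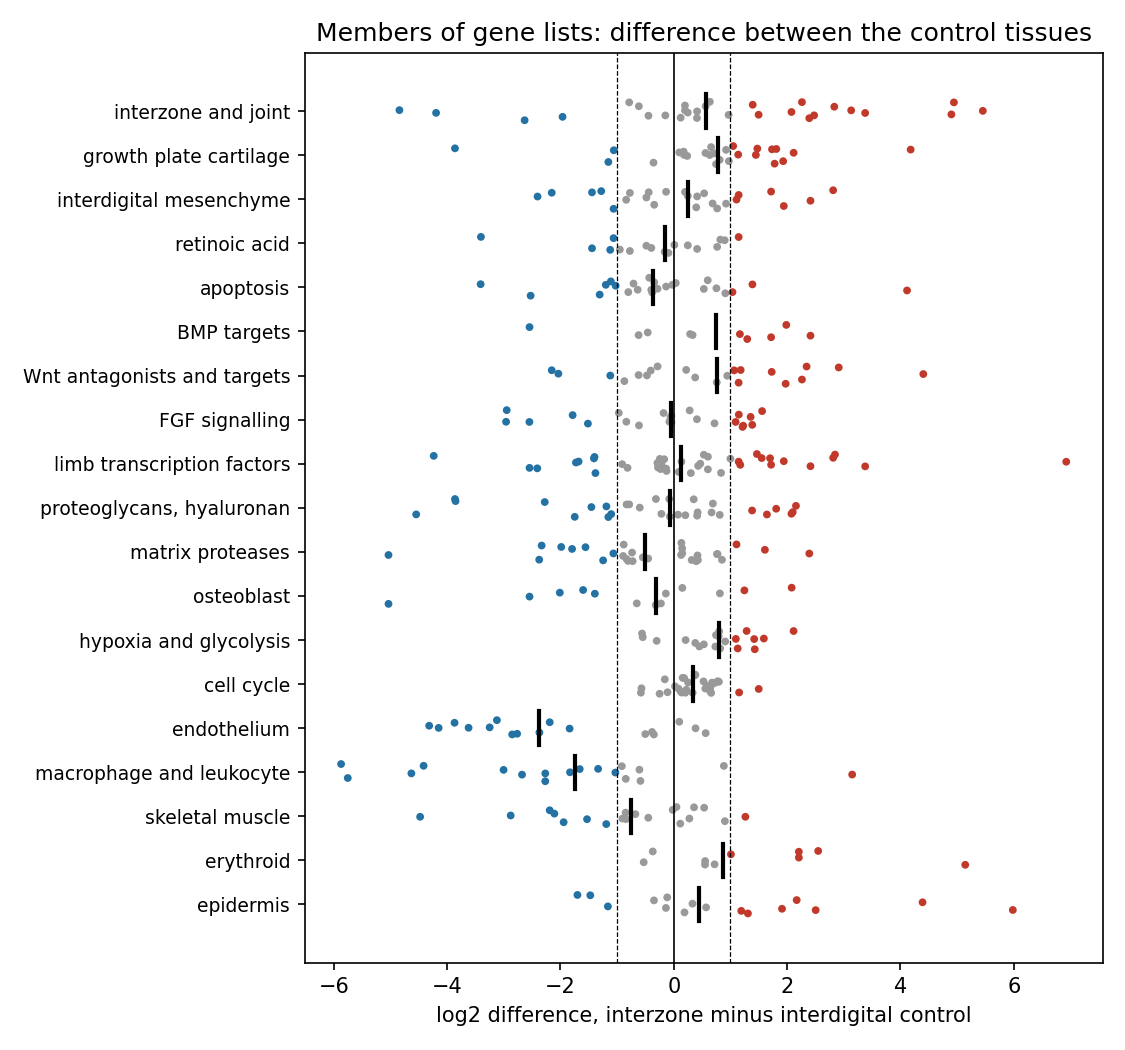
Each point is a measured member of a gene list at its log2 difference, interzone minus interdigital control tissue; thick bars mark list medians and dashed lines a 2-fold difference. The endothelium list has the lowest median of those drawn, -2.37, and the erythroid list the highest, 0.87.

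Several small leucine-rich proteoglycan genes of connective tissue were lower in interzone. Dcn, the decorin gene, was at 0.23 in interzone and 4.78 in interdigital tissue (23.4-fold lower). The related small leucine-rich proteoglycan genes Omd, Lum and Aspn were at -1.25, -0.88 and 1.71 in interzone and at 2.60, 1.40 and 3.46 in interdigital tissue, which made them 14.4-fold, 4.85-fold and 3.36-fold lower. Fmod, encoding fibromodulin of tendon and cartilage, was the opposite, at 2.56 and 0.91 (3.13-fold higher), and Bgn, the biglycan gene, differed by -0.22 at the probe used and 0.99 at its other probe. Over the whole proteoglycan and hyaluronan list, 6 of 30 genes were higher and 9 lower, and the median of -0.07 became 0.16 with the deposited ratio table. In that list 7 of 8 members past 2-fold with other probes had all of them in the same direction. The hyaluronan synthase genes differed among themselves, since Has2 was higher in interzone, Has1 was 2.15-fold lower (with -0.82 at its other probe) and Has3 was not well above background there, at least 23.2-fold lower.

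Of 25 collagen genes outside cartilage, 3 were higher and 4 lower (median -0.22). The fibrillar collagen genes Col1a1 and Col3a1 differed by -0.65 and -0.17, while the basement membrane genes Col4a1, Col15a1 and Col18a1 were 2.06-fold, 2.25-fold and 2.34-fold lower. Their other probes were all under 2-fold, at -0.96, -0.84 and -0.25, and each of the 3 genes fell under 2-fold in 2 or 3 of the processing alternatives. Of 30 matrix protease and inhibitor genes, 3 were higher and 8 lower (26.7%), with a median of -0.50, which turned to 0.13 with the stricter filter on dim probes. Mmp9, the gelatinase gene of osteoclasts and invading cells, was at -4.36 in interzone and 0.67 in interdigital tissue, with differences of -5.03 and -5.47 at its 2 probes. Plau, the urokinase gene, was not well above background in interzone and at 0.49 in interdigital tissue, at least 182-fold lower, with -1.80 at its other probe. Adamts15, a proteoglycan-cleaving protease gene, was at 2.09 and 0.48 (3.05-fold higher). Of 15 tendon and ligament genes, 3 were higher and 2 lower (median -0.07). Of the tendon regulators, Mkx was 2.25-fold higher and Scx 2.57-fold lower.

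Genes of vessels and of macrophages had the lowest medians of all lists. In a bulk sample, fewer cells of a type and less RNA per cell cannot be told apart. Of 17 endothelial genes, 11 were at least 2-fold lower (64.7%, against 14.7% of all genes), 0 were higher, and the median was -2.37, or -0.35 among genes that passed the stricter filter on dim probes. The linear signals of the list, each relative to the 75th percentile, summed to 22.1 in interzone and 37.8 in interdigital tissue. Emcn, the endothelial sialoprotein gene endomucin, was at -4.24 in interzone and 0.08 in interdigital tissue (19.9-fold lower). The adhesion molecule gene Pecam1 was at -1.14 and 2.11 (9.51-fold lower), and Cdh5, the endothelial cadherin gene, at -0.82 and 1.37, with -4.20 at its other probe. Receptor genes went the same way, with Tek at -4.59 and -0.44 (17.7-fold lower) and Flt1 at -4.07 and -0.45, its 4 probes lying between -3.62 and -2.81. Some endothelial genes did not differ past 2-fold, among them Cldn5, the tight junction gene, at 1.85 and 1.76, and Tie1 at -0.21 and 0.17. Of 11 pericyte and smooth muscle genes, 1 was higher and 4 were lower (median -0.21). Rgs5, a marker of pericytes, was at -5.22 in interzone and 0.51 in interdigital tissue, with differences of -5.73 and -3.81 at its 2 probes, and Acta2 and Tagln, the smooth muscle actin and transgelin genes, differed by -0.79 and -0.21, the other probes of Acta2 lying between -3.16 and 1.36 and that of Tagln at -3.08.

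Of 18 macrophage and leukocyte genes, 12 were at least 2-fold lower (66.7%), 1 was higher (5.56%), and the median was -1.75. Their signals summed to 7.59 in interzone and 26.1 in interdigital tissue. Tyrobp, a signalling adaptor of myeloid cells, was at -3.55 in interzone and 2.21 in interdigital tissue (53.9-fold lower), and F13a1, a factor of tissue-resident macrophages, at -4.88 and 0.99 (58.5-fold lower). Cd68, the lysosomal marker, was at -3.94 and 0.48 (21.3-fold lower), and the complement genes C1qa, C1qb and C1qc were 8.02-fold, 3.56-fold and 4.82-fold lower. Mrc1, the mannose receptor gene, was not well above background in interzone, at least 58.5-fold lower. All 4 members past 2-fold with other probes had them in the same direction. Ptprc, the pan-leukocyte phosphatase gene, was the exception at 0.79 in interzone and -2.36 in interdigital tissue (8.87-fold higher, with 0.39 at its other probe). The osteoclast list was short, and of its 6 genes 0 were higher and 2 lower (median -0.84), the protease gene Ctsk at 0.70 and 2.59 and the phosphatase gene Acp5 at -3.85 and -1.21. Beside the lower Alpl, Dcn and Notch4 readings above, the part of vessel and blood-borne cells in any of these differences was not tested.

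**Figure D4:**
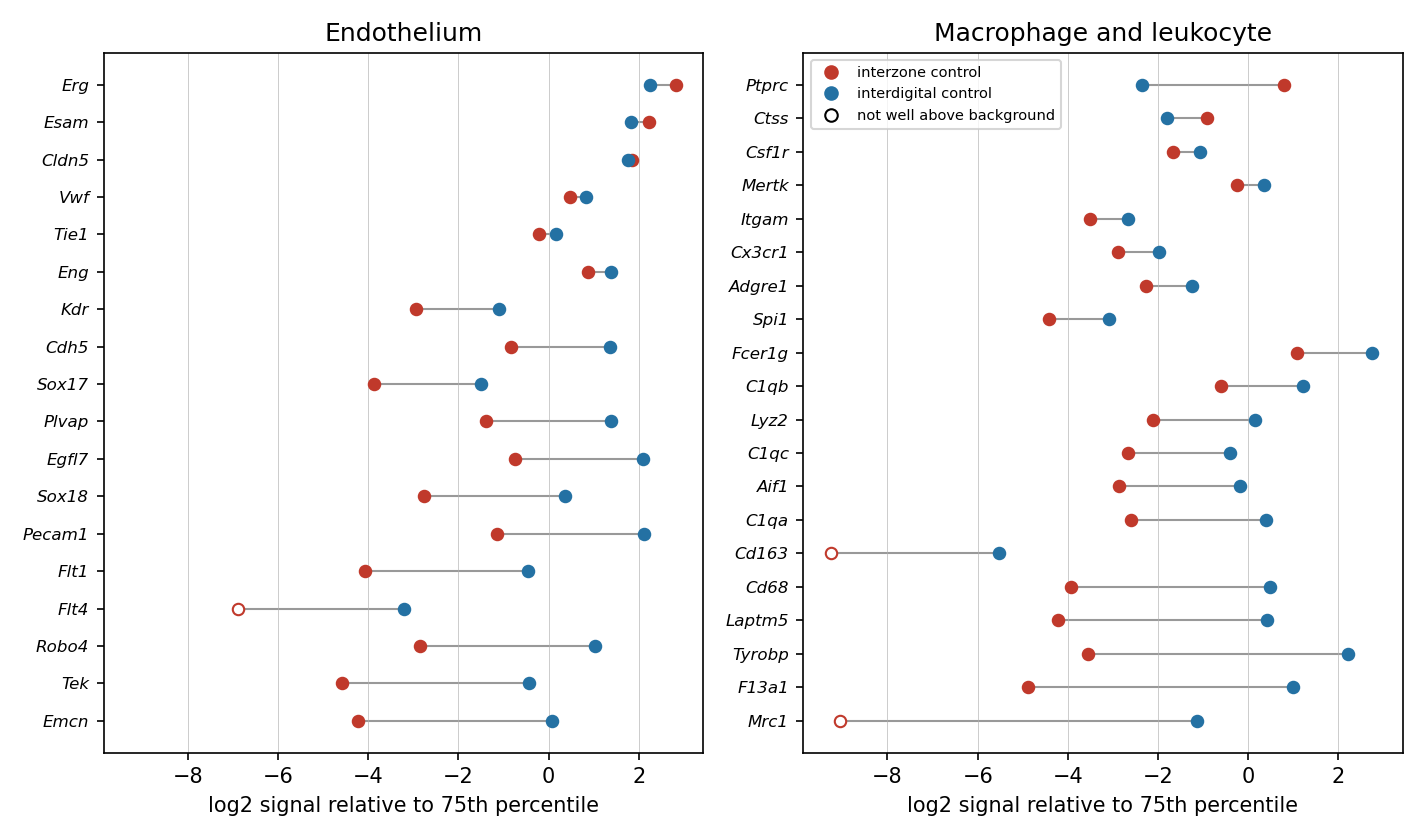
Each row is an endothelial gene (left) or a macrophage and leukocyte gene (right), with its level in control interzone and control interdigital tissue as log2 signal relative to the array's 75th percentile; open circles were not well above background. The interdigital level is the higher in 15 of 18 endothelial rows and in 18 of 20 macrophage and leukocyte rows.

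Muscle genes leaned to the interdigital side by smaller amounts, and nerve genes lay on both sides. Of 20 skeletal muscle genes, 1 was higher (5.00%) and 7 were lower (35.0%), with a median of -0.76 and summed signals of 22.8 in interzone and 35.6 in interdigital tissue. Tnnt1, the slow troponin T gene, was at -4.04 and 0.43 (22.3-fold lower), the cardiac actin gene Actc1 at -1.23 and 1.65 (7.35-fold lower), and Myog, the myogenic factor myogenin, at -3.78 and -1.84 (3.85-fold lower). Myod1, another myogenic factor gene, was at 3.53 and 3.48. Of 14 nerve and Schwann cell genes, 0 were higher and 3 lower (21.4%, against 14.7% of all genes). Their differences were above 0 in 6 and below it in 8. The median was -0.28, or -0.05 with quantile normalization and -0.03 with the brightest probe of the pair. The 3 were the axonal genes Nefl, Nefm and Stmn2, 18.8-fold, 4.02-fold and 2.36-fold lower. The Schwann cell gene Sox10 differed by 0.58 at the probe used and -0.83 at its other probe.

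Epidermal genes, which mark the skin over both tissues, were read higher in interzone at several probes. Of 16 measured, 7 were higher (43.8%, against 15.0% of all genes) and 3 lower (18.8%, against 14.7%). The median was 0.45 (1.04 averaging the probes of a gene), and summed signals were 28.7 in interzone and 14.2 in interdigital tissue. Of 4 members past 2-fold with other probes, 2 had all of them in the same direction. Trp63, the master regulator of stratified epithelium, was at -0.47 in interzone and not well above background in interdigital tissue, at least 106-fold higher. The keratin genes Krt15, at 3.19 and -1.20, and Krt5, at 0.07 and -2.44, were 21.0-fold and 5.68-fold higher. Cdh1, the epithelial cadherin gene, was at -3.97 in interzone and not well above background in interdigital tissue, at least 9.45-fold higher. Epithelial genes on the other side were Krt8 and Krt10, 3.25-fold and 2.78-fold lower, the other probe of Krt8 giving 0.35 and that of Krt10 -1.49. The part of skin cells in the interzone differences, including those of Dlx3 (7.19-fold higher), Lmx1b and the FGF and Wnt genes, was not tested.

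Red blood cell genes were higher in interzone. Of 10 erythroid genes, 5 were at least 2-fold higher, 0 were lower, and the median was 0.87, or 1.38 with the stricter filter on dim probes. The 1 member past 2-fold that had other probes did not have all of them in the same direction. Hba-x, the embryonic alpha-like globin gene, was at 0.82 in interzone and -4.33 in interdigital tissue (35.4-fold higher), and Hbb-y, the embryonic beta-like globin gene, at 3.16 and 0.96 (4.62-fold higher). Alas2, which starts haem synthesis in erythroid cells, was at 3.05 and 0.50 (5.85-fold higher), and Slc4a1, the anion exchanger of the red cell membrane, at 2.51 and 0.30 (4.62-fold higher). The adult globin genes Hba-a1 and Hbb-bt were among the brightest of the array, at 7.30 and 6.43 in interzone and 6.74 and 5.88 in interdigital tissue, and their near-identical copies may share probe signal. The erythroid regulators Gata1 and Klf1 differed by 0.72 and -0.37. The erythroid genes past 2-fold therefore lay on the interzone side, while most endothelial and macrophage genes past 2-fold lay on the interdigital side.

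Promoter windows of Hba-x, Hbb-y and Alas2, the 3 erythroid genes with the largest differences that the sequence table holds, are shown because these genes were higher in interzone together. Each runs from 250 bases before to 50 after the annotated start, 5′ to 3′ on the gene's strand, from RefSeq on build GRCm38.p6. Capitals mark matches on either strand to the GATA-type motifs AGATAA and, as its variant, TGATAA, to the CACCC motif, to the CCAAT motif and to the TATAAA motif, and adjoining matches run together.
Hba-x, chr11:32276350-32276649, plus strand: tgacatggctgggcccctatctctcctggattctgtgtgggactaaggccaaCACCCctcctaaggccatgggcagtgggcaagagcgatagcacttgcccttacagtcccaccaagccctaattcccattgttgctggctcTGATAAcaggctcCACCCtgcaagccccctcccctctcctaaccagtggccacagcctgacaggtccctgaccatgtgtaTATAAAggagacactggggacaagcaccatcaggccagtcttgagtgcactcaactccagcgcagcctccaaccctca
Hbb-y, chr7:103853158-103853457, minus strand: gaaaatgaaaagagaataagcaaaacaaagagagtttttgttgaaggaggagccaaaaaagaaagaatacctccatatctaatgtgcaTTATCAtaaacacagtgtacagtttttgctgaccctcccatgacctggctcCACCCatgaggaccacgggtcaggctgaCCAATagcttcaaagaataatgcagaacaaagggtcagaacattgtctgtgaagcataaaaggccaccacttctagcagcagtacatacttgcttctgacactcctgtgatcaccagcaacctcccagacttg
Alas2, chrX:150547167-150547466, plus strand: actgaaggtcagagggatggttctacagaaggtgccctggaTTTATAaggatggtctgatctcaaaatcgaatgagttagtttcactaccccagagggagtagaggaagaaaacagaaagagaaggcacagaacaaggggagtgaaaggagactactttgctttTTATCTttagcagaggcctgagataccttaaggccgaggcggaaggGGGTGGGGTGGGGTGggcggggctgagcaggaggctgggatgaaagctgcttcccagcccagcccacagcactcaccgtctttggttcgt
A GATA-type match begins at base 143 of the Hba-x window (TGATAA on the strand shown), at base 89 of the Hbb-y window (TGATAA on the opposite strand) and at base 165 of the Alas2 window (AGATAA on the opposite strand). TATAAA lies at base 223 of Hba-x and, on the opposite strand, at base 42 of Alas2, CCAAT at base 168 of Hbb-y, and CACCC on either strand in all 3. Over all 32851 promoter windows of that length, 11.2% hold AGATAA, 9.05% TGATAA, 57.5% CACCC, 37.4% CCAAT and 13.6% TATAAA. A match describes the letters of the window and says nothing about binding.

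The joint list of glycolysis and hypoxia response genes was more often higher than lower in interzone, with exceptions among the hypoxia response genes. Of 20 measured on both arrays, 7 were at least 2-fold higher (35.0%), 0 were lower, 17 differences were above 0, and the median was 0.80. A further 2 members were well above background in interdigital tissue only. The kinase gene Pgk1 was at 3.45 in interzone and 1.86 in interdigital tissue, with 1.59 and 1.55 at its 2 probes, and Pdk1, which holds pyruvate back from mitochondria, was at 0.42 and -1.0, with 1.42 and 1.78. The glucose transporter gene Slc2a1 was 2.44-fold higher, and the enzyme genes Eno1, Aldoa and Gapdh were 1.74-fold, 1.73-fold and 1.30-fold higher. Vegfa, the hypoxia-induced vascular growth factor gene, differed by -0.56, with its other probes at -0.35 and 1.19. Car9 differed by -0.55. Egln3, an oxygen-sensing hydroxylase gene, went the other way. It was not well above background in interzone and at -0.54 in interdigital tissue, at least 89.1-fold lower. Adm was likewise not well above background in interzone, at least 2.31-fold lower.

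Proliferation and housekeeping genes showed small differences. Of 29 cell cycle genes, 2 passed 2-fold on the interzone side and 0 on the other, but 24 differences were above 0, beside 9429 of all 17603 genes. The cell cycle median was 0.33, or 0.16 with loess normalization. Bub1b, a spindle checkpoint gene, was 2.83-fold higher, and Mki67, the proliferation marker, was at 2.32 in interzone and 2.24 in interdigital tissue. Of 31 proteasome subunit genes, 2 were higher, 2 lower and 24 above 0 (median 0.40, or 0.21 with loess normalization). Among 14 housekeeping genes, 1 was higher and 2 lower (median -0.29), with Actb at 4.83 and 4.68 (-0.04 at its other probe) and Gapdh at 5.13 and 4.75. Tbp, the TATA-binding protein gene, was 4.17-fold lower, with -2.56 at its other probe. Of 21 immediate early and stress genes, 6 were higher and 2 lower (median -0.02), Jun being 2.83-fold higher and Fos 4.12-fold lower.

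The genes with the largest differences were named only where no other measured probe went the other way, a condition that genes with a single probe meet by construction. On the interzone side, Vwa2, a basement membrane protein gene, was at 2.53 in interzone and -5.79 in interdigital tissue (320-fold higher). Cpxm2, a carboxypeptidase-like gene, was at 3.40 and -3.71 (139-fold higher), with its other probes at 3.88 and 4.69, and Frem2, of the basement membrane under skin, was at -0.21 and -7.05 (115-fold higher, with 3.30 at its other probe). Six2 stood among these 12 genes, as did the keratin gene Krt84, Zic2 and the kinase gene Lck, 101-fold, 84.0-fold and 75.6-fold higher, and Adgrg1, Smok2a, Gdf9, 4930437M23Rik and Fermt1, between 65.4-fold and 91.5-fold higher. Fermt1 encodes kindlin-1, which anchors keratinocytes, and Lck is known from T cells. Bounds added Sorcs3, Ces2g and Grhl1, an epithelial factor gene, which were not well above background in interdigital tissue and were at least 123-fold, 107-fold and 97.9-fold higher, beside Trp63.

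On the interdigital side, Septin4, a septin gene, was at -6.35 in interzone and 1.56 in interdigital tissue (240-fold lower). Dio3, the enzyme gene that inactivates thyroid hormone, was at -4.09 and 3.04 (140-fold lower), and Hdc, which makes histamine in mast cells, at -6.51 and 0.48 (127-fold lower). Fgd5, an endothelial exchange factor gene, was at -6.15 and 0.58 (106-fold lower), and Lgi2 was 95.8-fold lower with -4.93 at its other probe. Nek3, Lgals9, Mall, Cmtm2a, Aig1, C1qtnf9 and Bnc2 lay between 87.3-fold and 137-fold lower. Fmo1, a flavin monooxygenase gene, was not well above background in interzone and at 2.35 in interdigital tissue, at least 663-fold lower. Panx3 and Plau, described above, also stood among the brightest bounds on this side.

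The same tissue difference was read once more in mutant embryos, on 2 arrays that lie on different slides, so there tissue and slide cannot be told apart. Of 16546 genes measured on all 4 arrays, 2330 were at least 2-fold higher in the control pair, and 554 of these (23.8%) were higher in the mutant pair too, 529 (22.7%) were lower there and 1247 differed less. Of 2365 genes lower in the control pair, 663 (28.0%) were lower in the mutant pair, 512 (21.6%) were higher and 1190 differed less. Over all these genes, 17.6% were higher in the mutant pair and 18.1% lower, and genes past 2-fold the same way in both pairs made up 3.35% (higher) and 4.01% (lower). The shares among genes that differed in the control pair thus lay above those over all genes in either direction, and only slightly more of them repeated their direction than opposed it. Pearson's r between the differences of the control and mutant pairs was 0.05 across genes, which are not independent replicates.

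In the mutant pair 3 of 27 joint genes were higher, against 8 lower, beside the 17.6% and 18.1% of all genes, with a median of -0.29, against 0.56 in the control pair. Barx1 was higher in both pairs, at 0.73 in mutant interzone and -5.59 in mutant interdigital tissue. Gdf5 was at 2.08 and 2.37 in the mutant tissues, 1.22-fold lower. Lmx1b was at -2.57 and -0.40, Htra1 at -4.90 and -1.42 and Has2 at -3.55 and -1.27, all lower in mutant interzone. Gdf6 was not well above background in mutant interzone and at -4.62 in mutant interdigital tissue. Whether these differences between the pairs exceed the spread between arrays of 1 kind was not tested, since no group has more than 1 array.

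Among genes with the largest difference common to both pairs, Asgr1, a galactose-binding receptor gene, was at 0.70 and -5.07 in control interzone and interdigital tissue and at -0.95 and -5.77 in the mutant tissues. Chil1, a chitinase-like gene known from human cartilage, was at 0.14 and -4.08 in the controls and at 0.05 and -6.35 in the mutants. Adh7, an alcohol and retinol dehydrogenase gene, was 31.5-fold higher in the control pair and 11.5-fold higher in the mutant pair, and Rnf208 and Lrp11 were the others on the higher side. On the lower side stood Emcn, at -4.34 in mutant interzone and -0.40 in mutant interdigital tissue, beside Gramd1c, Cnbd2 (with -2.58 at its other probe), Msrb3 (with -2.16 and -0.42) and Lig3 (with -1.44). These genes were chosen for a difference in the same direction in both pairs. The endothelial list as a whole had a median of -0.43 in the mutant pair and -2.37 in the control pair, and the macrophage list 0.43 and -1.75. The erythroid list had 0.40 and 0.87, and the pericyte and smooth muscle list -0.22 and -0.21. Xist was at -5.56 in mutant interzone and -6.67 in mutant interdigital tissue, and the Y-linked genes Uty, Kdm5d, Eif2s3y and Ddx3y were well above background on both mutant arrays, unlike the control arrays, where Ddx3y alone was. The part of the sex-linked genes' difference in the comparison of the pairs was not tested.

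**Figure D5:**
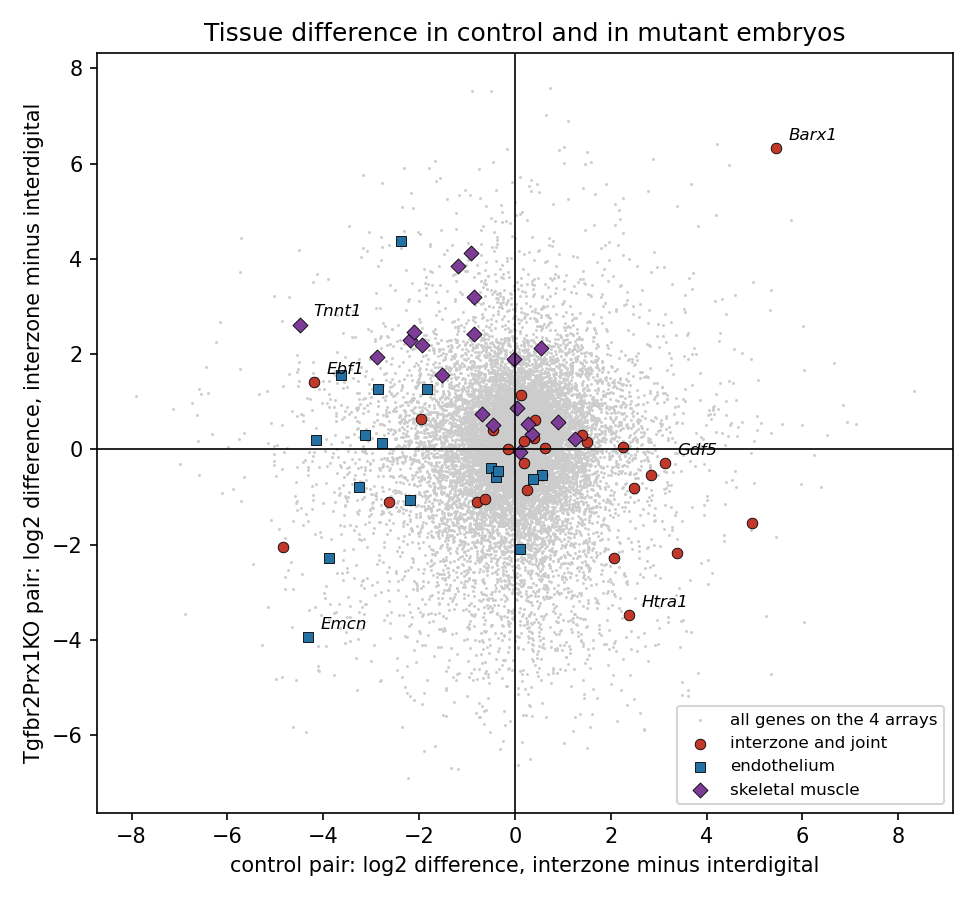
Each point is a gene measured on the 4 arrays, with its log2 difference, interzone minus interdigital, in control embryos on the horizontal axis and in Tgfbr2Prx1KO embryos on the vertical axis. Barx1 lies at 5.45 and 6.32, Gdf5 at 3.13 and -0.29, and Emcn at -4.32 and -3.94.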

How the data were processed

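The 6 Agilent 1-colour arrays share a mouse design. Per the labels' protocols, mRNA of the captured cells went through a commercial cDNA procedure (SuperAmp), whose PCR products were labelled with Cy3, and such amplification can change the relative level of transcripts. Spot intensity comes from the authors' deposited scanner output, made with Agilent Feature Extraction 9.5.1.1 per the file headers, and its processed form has the background subtracted. The deposited value table holds a linear ratio, each array's processed signal over its median. No genome build enters the values.

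Control spots and outlier spots were left out, and spots of a probe were averaged. Values are log2 processed signals minus the array's 75th percentile. Probes were named through a RefSeq table of GRCm38.p6, used for names only: 23082 by accession, 6582 by symbol, 3073 by older symbol, and 8437 probes had no match. Where a gene has several probes, the one brightest on average over the 6 arrays stands for it. A gene counted as measured where the scanner software marked it well above background on both arrays of a pair. Probes marked on a single array give only a bound. Genes were counted at 2-fold. Named genes were the 12 largest differences and the 4 brightest bounds in each direction (for the differences, genes at or above the median of detected genes on the brighter array, with every other measured probe the same way), the 6 in each direction whose smaller difference of the 2 pairs was largest, and members of gene lists. Members and lists were chosen with earlier results of these data known. A few genes that the rule names are not reported here. Groups come from the titles. The procedure was tested on simulated data, with noise smaller than the spread between probes of a gene. That check covers the computation and not the reliability of the 2-fold counts. With 1 array in each group no test was made, and p-values are not given. Alternatives were normexp background correction (limma 3.58.1, offset 50), quantile and loess normalization, another percentile, the deposited table, other probe rules, other filters and 4-fold.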

Additional observations from a re-analysis of the deposited data

Results flagged for a closer look

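Some results differed in direction between the control pair and the mutant pair, each read as interzone minus interdigital on the log2 scale, and the difference between the pairs was not tested. With 1 array in each group, and with the mutant arrays on different slides, a difference between the pairs cannot be told apart from a difference between slides. The skeletal muscle list had a median of -0.76 in the control pair and 1.89 in the mutant pair. Among joint genes, the dorsal regulator Lmx1b differed by 3.38 in the control pair and -2.16 in the mutant pair, the protease gene Htra1 by 2.39 and -3.48, and the hyaluronan synthase gene Has2 by 2.08 and -2.28. Among secreted signalling genes, the activin subunit gene Inhba differed by 3.62 in the control pair and -5.05 in the mutant pair, and the Wnt antagonist gene Wif1 by 2.34 and -2.82. The cell death genes Bid and Pmaip1 differed by 4.12 and -3.41 in the control pair and by -2.60 and 2.35 in the mutant pair. The receptor genes Acvrl1 and Notch4, both known from endothelium, differed by -5.73 and -2.12 in the control pair and by 3.72 and 5.07 in the mutant pair. The muscle troponin gene Tnnt1 differed by -4.48 in the control pair and 2.62 in the mutant pair, and the adhesion gene Fermt1 by 6.03 and -3.63. Summed signals of the epidermis list were 28.7 and 14.2 in control interzone and interdigital tissue, and 226 and 194 in the mutant tissues. Those of the skeletal muscle list were 22.8 and 35.6 in the controls and 66.4 and 21.9 in the mutants. The part of skin and muscle cells in the differences between the pairs was not tested.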

How the results depend on the processing

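Of 50 recomputed counts and shares, 32 stayed within 1.5 times the reported count or inside the interval of the reported share. That interval was a 95% binomial one over genes, which are not independent replicates, so it is a yardstick only. Every recomputed share of higher genes fell outside it. With both arrays required at or above the median of their detected genes, 756 genes were higher and 410 lower, 159 went the same way in both pairs and 100 opposite ways. At 4-fold these counts were 817, 976, 225 and 172, against 2634, 2581, 1217 and 1041 at 2-fold. The share of higher genes, 50.5%, was 52.2% with normexp, 60.1% with quantile and 48.3% with loess normalization, and 46.0% with the percentile over probes detected on both arrays. It was 63.8% with the deposited table, 48.7% with no filter on dim probes, 64.8% with the stricter filter, 46.3% averaging the probes of a gene, 52.8% with the brightest probe of the pair and 45.6% at 4-fold. The median of all genes ranged up to 0.31. No named gene past 2-fold changed sign under the alternatives that gave it a value, but Osr1 (-0.62) was at 0.44 with the brightest probe of the pair, Sox10 (0.58) at -0.12 and Vegfa (-0.56) at 0.09 with the mean over probes. The endothelium and osteoclast medians, -2.37 and -0.84, were -0.35 and -1.89 with the stricter filter, and the osteoclast median was -0.22 with quantile normalization; the cause was not tested. The joint list median lay between 0.40 and 0.80, that of cartilage between 0.66 and 1.02, and that of macrophages between -2.05 and -1.51. No paired analysis was possible because each group has 1 array, and for the same reason no array could be left out. Probes of 1 gene that disagree, and the dim signals behind the largest folds, limit single genes most.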

Other observations

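Several lists not described above lay on both sides as well. Of 12 measured chemokine and receptor genes, 3 were at least 2-fold higher in control interzone and 2 lower. Cxcl14, a chemokine gene of epithelium and mesenchyme, was at 1.66 in interzone and 0.00 in interdigital tissue (3.15-fold higher). The receptor gene Cxcr4 was at -3.46 and 0.09 (differences of -3.55 and -2.02 at its 2 probes), and its ligand gene Cxcl12 at 0.35 and 1.58 (2.34-fold lower, with -5.67 at its other probe). Ccl11, the eotaxin gene, was not well above background in interzone and at -0.94 in interdigital tissue, at least 67.4-fold lower.

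Of 14 insulin-like growth factor genes, 1 was higher (7.14%) and 2 were lower (14.3%), neither share above that over all genes. Igf1, a growth factor gene, was at 1.31 in interzone and 3.92 in interdigital tissue (6.12-fold lower, with differences of -3.88 and -0.57 at its other probes). Of 13 cadherin and connexin genes, 2 were higher (15.4%) and 3 lower (23.1%). Cdh4, the retinal cadherin gene, was at 0.13 in interzone and -1.33 in interdigital tissue, and its 3 probes gave differences between 1.47 and 3.29. Cdh2 and Cdh11, the mesenchymal cadherin genes, differed by 0.44 and -0.14, with the other probe of Cdh2 close to 0 and those of Cdh11 at 0.35 and 0.69. Of 31 respiratory chain subunit genes, 3 were higher (9.68%) and 1 was lower (3.23%), with a median of 0.15. Of 14 interferon response genes, 2 were higher and 2 lower (14.3% each), near the shares over all genes.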
